A study of Mus musculus with 6 samples.

Results

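The epidermal differentiation complex is a cluster of genes on mouse chromosome 3 that encode the structural proteins of the cornified envelope, the tough protein shell of the outermost skin cells. Its structural members were taken as every gene whose symbol starts with Lce or Sprr followed by a digit, together with Ivl, Lor, Flg, Flg2, Hrnr, Rptn, Crnn, Tchh and Tchhl1, with the S100 genes left out. The annotation holds 47 such genes, all on chromosome 3. Of these, 45 had a row in the expression table, which holds 25112 genes, and 41 had an adjusted p-value, as did 11038 genes of the whole table.

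The cells were primary epidermal keratinocytes from wild-type C57BL/6 mouse pups at postnatal days 1 to 3. They grew to 60% confluence in medium with 0.05 mM calcium. The cells of 3 libraries had received pro-miR-148a, labelled as overexpression of the microRNA miR-148a, and those of 3 libraries miR-Control; the labels give 200 nM for the transfection. Total RNA was taken 48 h later. The labels do not say whether the libraries of a group came from separate cultures or litters, so the p-values may measure technical spread. In the titles, replicates 1 and 3 of the miR-148a group share the number 1 and replicate 2 has the number 2, while the controls are numbered 1, 2 and 3; what the number marks is not stated. The comparison asks which transcripts differ once miR-148a is raised. Only the authors' summary of that comparison was used here, so no value per library can be shown and each value below is a base mean (the mean normalized count over the libraries) or a log2 fold change with its standard error (SE).

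Keratinocytes that leave the basal layer first make the keratins Krt1 and Krt10, then involucrin (Ivl), and in the granular layer loricrin (Lor), with the late cornified envelope proteins (Lce) among the last; the small proline-rich proteins (Sprr) also join the envelope. Transglutaminases cross-link all of these beneath the cell membrane. The S100-fused type proteins (filaggrin, filaggrin-2, hornerin, repetin, cornulin, trichohyalin and trichohyalin-like 1) are large and repetitive. They bundle keratins or join the envelope, and trichohyalin serves chiefly the inner root sheath of the hair follicle and the papillae of the tongue. Low calcium is known to keep cultured keratinocytes little differentiated.

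Which group stands on top of the deposited fold changes is not stated, and every direction below rests on the following reading. MicroRNAs lower the transcripts they pair with. The active strand of miR-148a is printed with its seed, bases 2 to 8, in capitals, because the complement of the seed defines the sites used here:
mmu-miR-148a-3p: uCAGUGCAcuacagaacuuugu
As deposited, the 433 tested genes whose longest 3' untranslated region (UTR) holds an 8mer site (TGCACTGA) had a median of 0.10 on the log2 scale, and the 6025 genes with none a median of -0.01. With the sign turned, 27.9% of the 8mer genes were lower and 11.5% higher with miR-148a, against 16.3% lower and 19% higher among the genes with no site. Rock1, a kinase gene and known miR-148a target, was at -0.26 ± 0.09 SE on the log2 scale in the authors' deposited table with the sign turned (adjusted p = 0.0106). The deposited values were therefore read as control over miR-148a and their sign was turned, which makes a positive value higher with miR-148a; if the reading is wrong, every direction below turns round. These shares are a description, with no test.

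With miR-148a the Lce genes were lower almost throughout, Lor and Ivl were lower, the Sprr genes went both ways, and most S100-fused type genes were higher, with cornulin furthest up. Of the 41 members tested, 26 fell (63.4%), 8 rose (19.5%) and 7 did not pass the authors' adjusted p of 0.05. Over all tested genes 16.8% fell and 16.7% rose, and among genes at or above a base mean of 100 it was 23.4% and 26.4%. Changes of 2-fold or more were made by 18 members that fell and 3 that rose, against 4.48% and 2.31% of all tested genes. The median log2 fold change of the tested members was -0.91, that of all tested genes -0.01. Without 8 members whose standard errors were large for their level, all of them lower, the median was -0.60. Counting only the 20 tested members with under 10% of their 50-base windows in another gene's transcripts, 9 fell and 8 rose, with a median of -0.01. That count leaves out most of the Lce genes, which resemble each other. In bulk RNA, fewer cells of a type and less RNA per cell cannot be told apart.

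**Figure D1:**
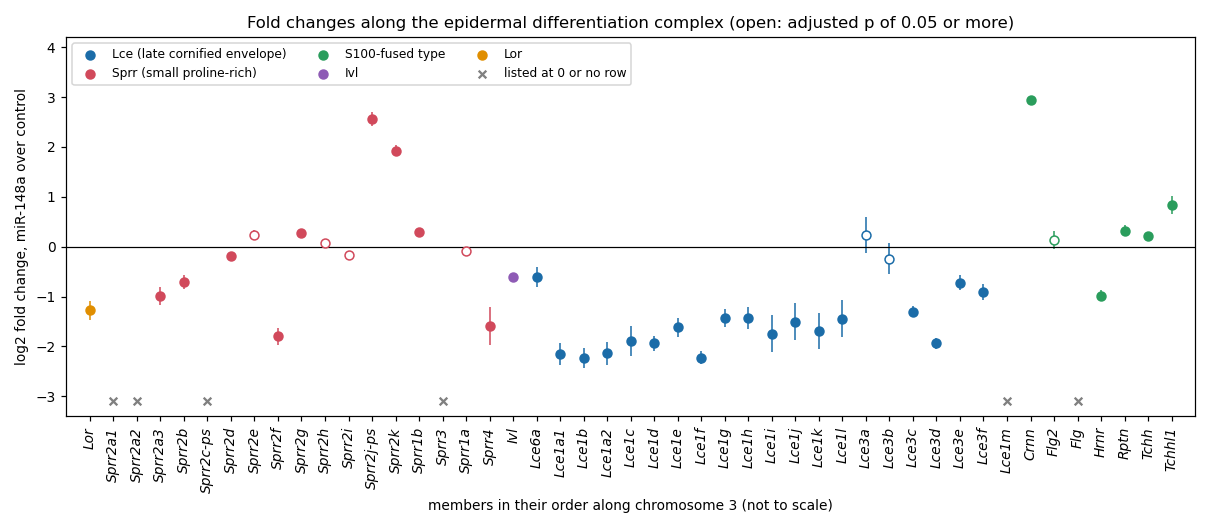
Log2 fold change of each member (miR-148a over control, vertical axis; bars are the authors' standard errors) in the order of the genes along chromosome 3, from Lor to Tchhl1. All 13 tested Lce1 genes lie below -1.4, while Sprr2j-ps, Sprr2k and Crnn stand above 1.9; crosses mark members listed at 0 or without a row.

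All 13 tested Lce1 genes fell, each by more than 2-fold. These genes encode small cysteine- and glycine-rich proteins added to the envelope late in cornification. Their log2 fold changes ran from -2.23 to -1.43 with a median of -1.75, and their base means from 26.0 to 1693. The largest fall was that of Lce1b, 4.69-fold in the authors' deposited table (-2.23 ± 0.19 SE on the log2 scale, base mean 393, adjusted p = 6.34e-29). Close to that value was Lce1f, 4.67-fold lower (-2.22 ± 0.12 SE, base mean 849, adjusted p = 3.8e-70). The most abundant Lce1 gene, Lce1a1 (base mean 1693), was 4.45-fold lower in the authors' deposited table, and Lce1a2 (base mean 1075) 4.41-fold. Lce1d was 3.84-fold lower, Lce1c 3.69-fold, Lce1i 3.36-fold, Lce1k 3.21-fold and Lce1e 3.06-fold in the authors' deposited table. At the shallow end of the range were Lce1j (2.83-fold), Lce1l (2.71-fold), Lce1h (2.70-fold) and Lce1g (2.69-fold). Lce1j and Lce1l had the lowest base means of the tested Lce1 genes, 26.0 and 32.2. Standard errors did not keep growing as counts fell: Cd3e, at a base mean of 0.33, had 0.15, against 0.37 for Lce1j. Whether the authors shrank the fold changes of low-count genes towards 0 is not stated and was not tested. The order and width of this range may therefore depend on counts. Lce1m, which lies apart from the other Lce1 genes beyond the Lce3 block, was listed at 0 for both of its transcripts and could not be compared.

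The Lce3 genes, which in human skin are induced by injury and in psoriasis, were lower in 4 of 6 cases. Lce3d was 3.83-fold lower in the authors' deposited table (-1.94 ± 0.11 SE on the log2 scale, base mean 1606, adjusted p = 9.86e-67) and Lce3c 2.47-fold (-1.31 ± 0.11 SE, base mean 2009). Lce3f was 1.88-fold and Lce3e 1.65-fold lower. The remaining pair had few counts: Lce3a (0.23 ± 0.36 SE, base mean 29.3) and Lce3b (-0.24 ± 0.31 SE, base mean 46.8) did not pass in the authors' deposited table. Their standard errors are too wide to show whether they differ from the rest of the family. Lce6a, the single gene of its type, was 1.51-fold lower (-0.60 ± 0.20 SE, base mean 161, adjusted p = 0.0106).

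Lce genes are close copies, so reads could be split or shared between them. Of the 50-base windows of the Lce1 transcripts tested, between 9.12% (Lce1k) and 27.1% (Lce1i) also occurred in a transcript of another gene. For Lce3 genes the share was 12.1% (Lce3b) to 49.3% (Lce3d). How the authors counted such reads is not stated in the labels or headers. Lce1k and Lce1l, at under 10%, were lower by 3.21-fold and 2.71-fold.

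Lor, the major protein of the cornified envelope, had a base mean of 21980, and in the authors' deposited table its log2 fold change was -1.28 ± 0.19 SE (2.42-fold lower, adjusted p = 3.1e-10). Ivl, the early scaffold of the envelope, had a base mean of 5016 and was 1.52-fold lower (-0.60 ± 0.08 SE, adjusted p = 9.56e-14). Both genes lie at the edges of the Sprr block.

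The Sprr genes encode short proline-rich cross-bridging proteins, and Sprr1a and Sprr1b were the most abundant members. Per kilobase of transcript, the base mean was 149598 for Sprr1a and 52479 for Sprr1b, against 12356 for Lor, 2610 for Ivl and 2401 for Lce1a1, the highest of the Lce1 genes. By base mean alone, the Sprr genes made up 0.776% of all normalized counts and the Lce genes 0.0431%. The 2 Sprr1 genes changed little: in the authors' deposited table Sprr1a did not pass (-0.09 ± 0.07 SE on the log2 scale, adjusted p = 0.334) and Sprr1b rose 1.23-fold (0.30 ± 0.07 SE, adjusted p = 6.64e-05). Sprr4 fell 3.00-fold (-1.58 ± 0.38 SE, base mean 166, adjusted p = 0.000176), and Sprr3, an esophageal member, was listed at 0 for both of its transcripts. In all, 4 of 13 tested Sprr genes rose (30.8%), 5 fell (38.5%) and 4 did not pass. Among all genes at or above a base mean of 100, where all tested Sprr genes lay, 26.4% rose and 23.4% fell. The share of Sprr genes that rose was near that of genes at such levels.

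**Figure D2:**
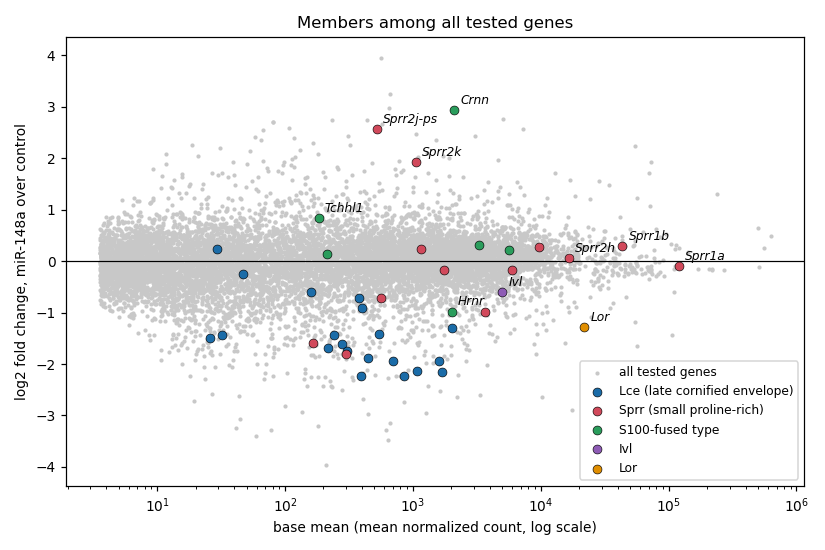
Base mean (horizontal axis, log scale) and log2 fold change (vertical axis, miR-148a over control) of the 41 tested members, coloured by family, over all 11038 tested genes in grey. The abundant Sprr1 and Sprr2 genes lie near 0, while Lce genes of low to middle level lie well below it.

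Genes of the Sprr2 block went in opposite directions. Sprr2j-ps, annotated as a transcribed pseudogene, rose 5.90-fold (2.56 ± 0.13 SE on the log2 scale, base mean 523, adjusted p = 1.07e-79; authors' deposited table). The next member along the chromosome, Sprr2k, rose 3.81-fold (1.93 ± 0.11 SE, base mean 1050, adjusted p = 6.75e-62). Sprr2f, which lies earlier in the same block, fell 3.48-fold (-1.80 ± 0.18 SE, base mean 300.0, adjusted p = 3.8e-22; authors' deposited table). Sprr2a3 was 1.99-fold lower (-0.99 ± 0.18 SE, base mean 3693) and Sprr2b 1.64-fold lower (-0.71 ± 0.14 SE, base mean 565). The most abundant Sprr2 genes changed little. Sprr2h, at a base mean of 16585, did not pass (0.07 ± 0.06 SE, adjusted p = 0.508), Sprr2g, also annotated as a transcribed pseudogene, rose 1.20-fold (base mean 9693) and Sprr2d fell 1.13-fold (base mean 5997, adjusted p = 0.0287) in the authors' deposited table. Sprr2e (0.23 ± 0.10 SE, adjusted p = 0.0649) and Sprr2i (-0.17 ± 0.08 SE, adjusted p = 0.0958) did not pass.

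Read sharing touches the Sprr2 genes unequally. Sprr2k, Sprr2g and Sprr2h share no 50-base window with another gene, and Sprr2j-ps and Sprr2f share 0.159% and 0.714% of theirs. Sprr2a1 and Sprr2a2 were listed at 0, and 96.3% and 96.5% of their windows occur elsewhere, mostly in each other and in Sprr2a3. Sprr2a3 has 47.4% of its windows shared, and whether its value holds reads of the other copies was not tested. Sprr2c-ps, a pseudogene, had no row.

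Cornulin (Crnn), a protein of squamous epithelia that is strong in the esophagus and binds calcium, rose 7.64-fold (2.93 ± 0.09 SE on the log2 scale, base mean 2105, adjusted p = 1.28e-238; authors' deposited table). It was the largest change of any member in either direction. Tchhl1 rose 1.79-fold (0.84 ± 0.18 SE, base mean 184, adjusted p = 3.47e-05), Rptn 1.25-fold (0.32 ± 0.10 SE, base mean 3270) and Tchh 1.17-fold (0.22 ± 0.07 SE, base mean 5657) in the authors' deposited table. Hornerin (Hrnr), whose repeats resemble those of filaggrin, went the other way and fell 1.97-fold (-0.98 ± 0.11 SE, base mean 2020, adjusted p = 7.55e-17). Flg2 did not pass (0.13 ± 0.18 SE, base mean 211, adjusted p = 0.656). Filaggrin itself (Flg) had no row that matched by accession and is not analysed here. Of the 6 genes tested 4 rose, 1 fell and 1 did not pass, and none shares a 50-base window with another gene.

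Few members held a miR-148a site, and their number was not compared with genes whose 3' UTRs are of like length. Of 9882 tested genes with an annotated 3' UTR, 433 held an 8mer and 6025 none of the site types searched. Crnn was the only member whose longest 3' UTR holds an 8mer, in a UTR of 237 bases, and it rose. Ivl, which fell, and the Sprr2a copies hold a 7mer-A1 site (GCACTGA) in their longest 3' UTR. For Sprr2a3, the only Sprr2a copy with counts, that site starts at base 1359 of a UTR of 2566 bases. The transcript matched to its listed row has 682 bases in all, too short for that UTR. Whether the fold change of this row holds reads of the longer transcript was not tested. None of the Lce genes, Lor or the other members with an annotated 3' UTR holds any site type searched, which were the 8mer, the 7mer-m8 (TGCACTG), the 7mer-A1 and the 6mer (GCACTG). The sites of Crnn and Ivl are shown with the bases around them (GENCODE M21), the match in capitals, because their genes moved in opposite directions:
Crnn: ggtcatctcatTGCACTGAattccccccaa
Ivl: attagtaccaaGCACTGActaagccagtc
A match of letters does not show that a site is used.

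Promoter sequence, which the rule for members did not use, differed between the families. The 250 bases before the annotated start were searched on both strands for TGANTCA, the core letters bound by AP-1 (Fos and Jun) factors, for TATAAA, the TATA box, and for CACCC, letters bound by Klf factors; TGANTCA reads the same on both strands, and it can overlap CACCC by 2 bases. The promoter table lacks Lce1f, Sprr2g, Sprr2j-ps and Sprr2c-ps and includes Lce1m, Sprr2a1 and Sprr2a2, which were listed at 0, and Flg, which had no row, so the promoters counted are not those of the tested genes alone. TGANTCA occurred in 7 of 10 Sprr2 promoters and 5 of 7 of the S100-fused type. It occurred in 0 of 13 Lce1 promoters and 0 of 6 Lce3 promoters, against 6.75% of 32851 promoters. At a share of 6.75%, a count of 0 in so few promoters was not shown to be low, and no test was made. TATAAA occurred in 7 of 10 Sprr2, 4 of 7 S100-fused type, 2 of 13 Lce1 (Lce1d and the untested Lce1m) and 1 of 6 Lce3 promoters, against 12.4% of all. The Lce3 match, in Lce3e, begins at base -243, far from the start. On the gene strand in the last 40 bases, TATAAA occurred in 37.2% of the 43 member promoters and in 2.31% of all. CACCC was found in 41.9% of the 43 member promoters in the table and in 52% of all promoters. Among the Sprr2 genes, Sprr2k, which rose, and Sprr2f, which fell, hold both TGANTCA and TATAAA. Lor and Ivl, which fell, hold both as well. Of the S100-fused type genes that rose, Crnn and Rptn hold both, Tchhl1 only TGANTCA and Tchh neither, while Hrnr, which fell, holds only TATAAA. In Crnn the TGANTCA match is TGAATCA, which is outside the AP-1 core letters. The 200 bases before the start are shown for Sprr2k, Sprr2f, Crnn and 2 Lce1 genes that fell, with TGANTCA and TATAAA in capitals (RefSeq, GRCm38.p6, 5' to 3' on the gene's strand), to let the families be compared.
Crnn, chr3:93144589-93144788, plus strand: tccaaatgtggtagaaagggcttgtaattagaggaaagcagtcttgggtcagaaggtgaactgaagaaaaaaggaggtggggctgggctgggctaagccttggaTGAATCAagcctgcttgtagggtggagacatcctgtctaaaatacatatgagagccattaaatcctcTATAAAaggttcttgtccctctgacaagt
Sprr2k, chr3:92432382-92432581, plus strand: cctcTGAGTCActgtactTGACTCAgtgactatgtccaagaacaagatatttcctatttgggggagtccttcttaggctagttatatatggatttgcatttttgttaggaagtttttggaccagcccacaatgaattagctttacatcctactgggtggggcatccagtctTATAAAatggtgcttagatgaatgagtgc
Sprr2f, chr3:92364987-92365186, plus strand: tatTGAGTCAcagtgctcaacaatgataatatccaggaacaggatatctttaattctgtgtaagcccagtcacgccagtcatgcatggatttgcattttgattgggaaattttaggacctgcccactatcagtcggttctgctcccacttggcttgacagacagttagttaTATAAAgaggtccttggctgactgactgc
Lce1d, chr3:92687211-92687410, minus strand: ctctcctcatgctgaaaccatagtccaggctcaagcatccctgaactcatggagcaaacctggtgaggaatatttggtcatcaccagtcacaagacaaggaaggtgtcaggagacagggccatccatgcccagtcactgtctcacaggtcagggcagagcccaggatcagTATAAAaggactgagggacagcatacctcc
Lce1b, chr3:92656927-92657126, minus strand: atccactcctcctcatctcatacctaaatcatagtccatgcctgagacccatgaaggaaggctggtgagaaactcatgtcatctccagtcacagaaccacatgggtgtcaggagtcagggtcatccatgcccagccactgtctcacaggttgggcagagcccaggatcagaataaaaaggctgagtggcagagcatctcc
A match is a description of these letters and not a binding site, and the files hold no measure of binding.

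Other protein-coding genes lie between the members, 7 in all. The gene 2310050C09Rik, between the Lce1 and Lce3 blocks, was 3.34-fold lower (-1.74 ± 0.15 SE on the log2 scale, adjusted p = 4.21e-30; authors' deposited table). Crct1, next to Lce3f, rose 1.34-fold (0.42 ± 0.06 SE, base mean 43369), and Kprp, the keratinocyte proline-rich protein next to Lce1l, fell 1.25-fold (-0.32 ± 0.11 SE, adjusted p = 0.0124). Prr9, Lelp1 and Smcp did not pass, and Tdpoz8 was listed at 0.

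Genes whose products cross-link, scaffold and process the envelope went both ways. Of 33 tested genes of this list 14 fell (42.4%) and 9 rose (27.3%), 10 did not pass, and the median was -0.18 on the log2 scale. Over all tested genes 16.8% fell and 16.7% rose, and among genes at or above a base mean of 100 it was 23.4% and 26.4%. The lowest in the authors' deposited table were Cst6, a protease inhibitor of the cornified layer (-2.89 ± 0.10 SE), and a pair of kallikreins that shed corneocytes, Klk5 (-2.64 ± 0.09 SE) together with Klk7 (-2.23 ± 0.07 SE). The highest were Padi1, a peptidylarginine deiminase (2.71 ± 0.29 SE), the envelope gene Cnfn (1.58 ± 0.09 SE) and Padi3, the deiminase that acts on trichohyalin (1.19 ± 0.21 SE). The transglutaminase gene Tgm3 fell (-0.50 ± 0.15 SE, adjusted p = 0.00503), whereas the listed transcript of Tgm1 had a base mean of only 19.2 and did not pass (0.77 ± 0.38 SE). The 5 most abundant genes of the list went both ways. Besides Klk7, desmoplakin (Dsp, base mean 269425, -0.18 ± 0.06 SE), the filaggrin-processing protease Asprv1 (base mean 217518, -0.15 ± 0.06 SE) and the protease inhibitor Spink5 (base mean 72497, -0.15 ± 0.06 SE) fell, whereas the envelope scaffold periplakin (Ppl, base mean 71792) rose 2.09-fold (1.06 ± 0.09 SE, adjusted p = 2.92e-33; authors' deposited table).

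Transcription factors that are known to act on the complex also split. Among 34 tested regulators 12 rose (35.3%) and 8 fell (23.5%), 14 did not pass, and the median was 0.09. Over all tested genes 16.7% rose and 16.8% fell. Among genes at or above a base mean of 100 it was 26.4% and 23.4%, so the share that fell was near that of genes at such levels. Id2, an inhibitor of helix-loop-helix factors, rose most (2.76 ± 0.07 SE), followed by Id3 (1.38 ± 0.07 SE) and Keap1 (1.00 ± 0.21 SE), the brake on the oxidative stress factor Nrf2, in the authors' deposited table. The lowest were the POU factors Pou2f3 (-1.46 ± 0.21 SE) and Pou3f1 (-0.83 ± 0.13 SE) and the AP-1 subunit Jun (-0.70 ± 0.08 SE). Of the other AP-1 subunits, Fosl1 (-0.52 ± 0.17 SE) and Fos (-0.33 ± 0.08 SE) fell, and Fosl2 (0.04 ± 0.07 SE) and Junb (0.06 ± 0.06 SE) did not pass. Of the factors of late differentiation, small rises were made by Klf4 (0.25 ± 0.07 SE), Zfp750 (0.24 ± 0.07 SE) and Prdm1 (0.22 ± 0.08 SE). The listed transcripts of 7 regulators were at 0, among them Trp63, the master factor of stratified epithelia, Jund and Ezh2. Since these are genes that keratinocytes use, and 58.4% of all transcripts were listed at 0, a value of 0 in this table need not mean absence, for the members at 0 as well. Whether any regulator bears on the members was not tested.

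**Figure D3:**
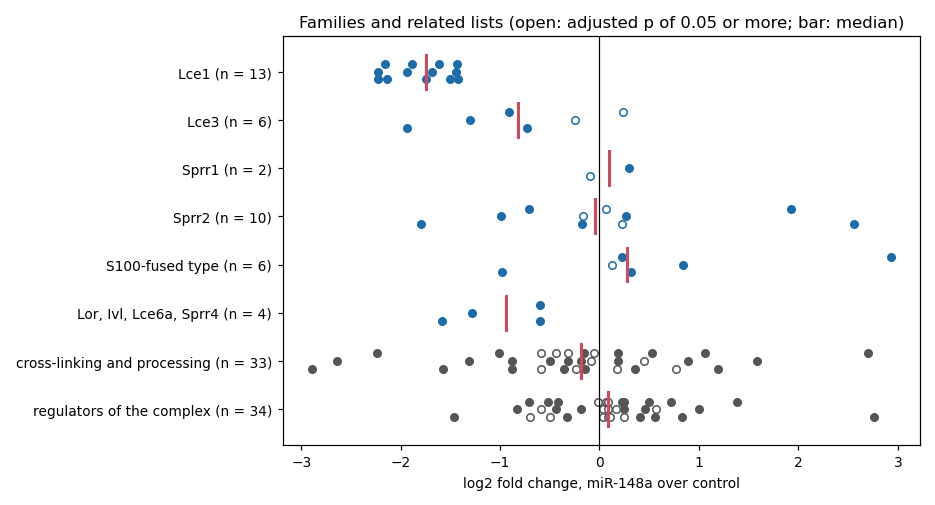
Log2 fold change (horizontal axis, miR-148a over control) of each tested gene in the families of the complex (blue) and in the 2 related lists (grey), with open points for adjusted p of 0.05 or more and a red bar at the median. The 13 Lce1 genes lie between -2.23 and -1.43, whereas Sprr2, S100-fused type and both lists reach to either side of 0.

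In the authors' table of gene ontology categories, the cornified envelope had the lowest over-representation p of 951 categories: 29 of its 47 genes were counted as changed (61.7%, adjusted p = 5.19e-05; authors' deposited table). The category is the ontology's own and not the list of members; its genes are not named there, and it has no direction.

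The labelled cell type was checked against 11 keratinocyte markers, whose levels were uneven. Krt5 of basal keratinocytes had a base mean of 630448, the highest in the table, and rose (0.49 ± 0.06 SE; authors' deposited table), and Perp and Dsg3 had base means of 207541 and 33624. In contrast, the listed transcripts of Krt14, the usual partner of Krt5, and Col17a1 had base means of only 40.3 and 32.0, those of Itga6, Itgb4 and Dsc3 had 6.50, 4.22 and 3.89, and Trp63 was at 0. Several of these are as low as the immune markers given below, and the cause was not tested. Of the 10 tested keratinocyte markers 3 fell and Krt5 alone rose. The spinous keratins Krt1 (-1.32 ± 0.18 SE) and Krt10 (-0.88 ± 0.12 SE) fell beside the Lce genes and Lor. Markers of other skin cells moved too: of 9 tested fibroblast markers 6 fell and none rose (summed base mean of the list 26603, with Pdgfrb and Postn listed at 0). Of 5 tested melanocyte markers 1 fell (summed base mean 15387, with Kit and Tyrp1 listed at 0), and all 3 tested immune markers fell at a summed base mean of 76.2, with Ptprc, Cd74 and Cd207 listed at 0. Of 3 tested endothelial markers 2 rose and 1 fell (summed base mean 593), with Pecam1 and Tek listed at 0. Over all tested genes 16.8% fell and 16.7% rose, and these marker lists are short. The part of these other cells in the members' changes was not tested.

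Several members had unusually large standard errors for their level. The SE of each tested gene was set against the median of the 200 tested genes nearest to it in base mean, and 50 of 11038 genes (0.453%) reached 1.5 times that median. Among them were 8 of the 41 members (19.5%): Lor at 3.07 times, Sprr2a3 at 2.57, Lce1a1 at 2.52, Lce1i at 2.38, Lce1a2 at 2.38, Lce1c at 2.26, Lce1k at 2.03 and Sprr4 at 1.90. All 8 were called lower; the ratio was 1.09 for Crnn and 1.11 for Sprr1a. Krt1, a spinous keratin gene outside the complex, was at 2.69 times and Krt10 at 1.45 times. The SE of a fold change grows with the spread between libraries of a group and also depends on the size of the change, and their parts were not tested. The table holds no value per library. Without these 8 members, 18 of 33 fell and 8 rose, and the median log2 fold change was -0.60.

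**Figure D4:**
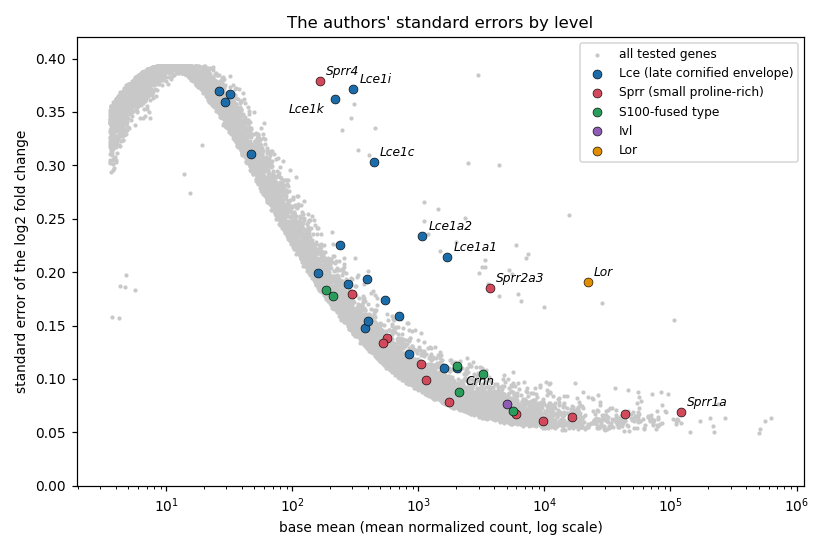
The authors' standard error of the log2 fold change (vertical axis) against base mean (horizontal axis, log scale) for the 41 tested members, coloured by family, over all 11038 tested genes in grey. Lor, Sprr2a3, Sprr4 and 5 Lce1 genes lie well above the band that most genes form, while Crnn and Sprr1a lie within it.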

How the data were processed

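RNA sequencing compared 3 libraries with miR-148a and 3 control libraries, grouped by sample title. The submitters' processing notes name DESeq2 and mm9, with no version or role; aligner, counter and annotation are not stated there. Per the file headers, the authors' values per RefSeq transcript are a base mean (a signal, the average of normalized counts), the log2 fold change with a standard error, the Wald score and p-values, raw and adjusted. The deposited score equalled the fold change over its error to within 1.69e-07. The authors' deposited gene ontology table gives numbers of genes per category and p-values. Neither holds a column per library, so depth per library is unknown, no count model was fitted here, and the precision is that of the authors' standard errors.

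Transcripts were paired with symbols through RefSeq accessions (42739 of 42885 matched, GRCm38.p6 table). Each gene was represented by its transcript with the highest base mean, and a gene was called at an adjusted p under 0.05. Transcripts without an adjusted p had base means of at most 3.56. Signs were turned to make positive values higher with miR-148a. Transcript lengths, 3' untranslated regions (longest, at least 20 bases) and 50-base windows came from GENCODE M21, and miRNA and promoter sequences from RefSeq (GRCm38.p6). Python 3.11.15, pandas 2.3.3 and scipy 1.17.1 were used. The recentred Wald test was checked on simulated data. The members, the lists and the naming of every member (and of the 3 highest and 3 lowest called genes of each other list) were chosen with earlier results of these data known. The thresholds for a large standard error and for shared windows were set after seeing the data. Krt1, Krt10, Krt5, Tgm1, Tgm3, Dsp, Asprv1, Spink5, Ppl, Klf4, Zfp750, Prdm1, Trp63, Jund, Ezh2, Fos, Fosl1, Fosl2, Junb, the genes between the members and the cell type markers were named after their values were seen.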

Additional observations from a re-analysis of the deposited data

How the results depend on the processing

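The counts of 26 lower and 8 higher members stayed within 1.5 times under a stricter adjusted p of 0.01 (24 and 8), no filter by mean, a base mean of at least 100 (24 and 9), the transcript with the smallest p, and 2 recentrings of the fold changes (26 and 9, or 27 and 8). With a fold of at least 2 required, 3 members were higher and 18 lower. Lce6a and Sprr2d lost their call at 0.01. Sprr2e passed at a base mean of at least 100 and when recentred on all genes, and Sprr2i when recentred on abundant genes. No member changed sign under these settings. Among settings added after seeing the data, leaving out members with a large standard error moved the median to -0.60, and keeping only members with few shared windows moved it to -0.0146 and the lower count to 9, because most Lce genes leave the count. No paired analysis was possible because the table holds no column per library, and for the same reason no replicate could be left out.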
